A study of Mus musculus with 2 samples.

Results

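The miR-200 family is the set of 5 microRNA genes Mir200a, Mir200b, Mir429, Mir200c and Mir141, among 1973 microRNA genes counted. The family was chosen by name and not by a cutoff on its values, but with earlier results of these data known. It was measured in mouse kidney at embryonic day 16.5, strain B6NCrl, in 2 libraries of RNA shorter than 30 nt. Embryos of both sexes were pooled. The library of replicate 2 came from 41 embryos, and the labels do not number those behind replicate 1. They call the libraries biological replicates with separate tissue samples but give a single donor record, so their spread may be partly technical. All samples are untreated, healthy kidney, so the series has no contrast between conditions, and the comparisons below are between genes and between the libraries.

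MicroRNAs are cut from hairpins in longer transcripts, and 1 arm of each hairpin usually becomes the main product. That product pairs with messenger RNAs through its seed, here bases 2 to 8, and lowers the output of its targets. The miR-200 family is known from epithelial cells, where it represses the transcription factors ZEB1 and ZEB2, which in turn repress the family and the adhesion gene encoding E-cadherin. In developing kidney, epithelia are found in the branching ureteric bud and in the nephron tubules that form around it. Whole tissue was sequenced, so a difference in the number of epithelial cells and a difference in microRNA per cell cannot be told apart.

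The mature sequences of the 3′ arms are shown because they define the groups compared. They were read from RefSeq on GRCm38.p6, in which 5 of 5 members matched, and each is written 5′ to 3′ with its seed in capitals.
miR-429-3p: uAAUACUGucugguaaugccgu
miR-200b-3p: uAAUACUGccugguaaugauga
miR-200c-3p: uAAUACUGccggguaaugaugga
miR-200a-3p: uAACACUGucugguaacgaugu
miR-141-3p: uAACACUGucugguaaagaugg

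Mir429, Mir200b and Mir200c share the seed AAUACUG, and Mir200a and Mir141 the seed AACACUG. With positions counted from 1 at the 5′ end, the seeds differ by the single substitution U4C. Among 1738 mature mouse microRNAs in the RefSeq table, no other gene carried either seed. Within a seed group, the products of Mir200b and Mir200c were identical at 20 of 22 positions, with U11G and A22G between them. Those of Mir200a and Mir141 were also identical at 20 of 22 positions, with C17A and U22G. The product of Mir429 differed from that of Mir200b at 4 positions and from that of Mir200c at 5.

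The deposited counts are per hairpin and add up reads from both arms, as shown for the highest and the lowest member of the family, with the mature arms in capitals (5′ arm, then 3′ arm).
Mir429 hairpin: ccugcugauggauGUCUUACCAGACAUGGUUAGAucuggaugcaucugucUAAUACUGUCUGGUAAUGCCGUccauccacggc
Mir141 hairpin: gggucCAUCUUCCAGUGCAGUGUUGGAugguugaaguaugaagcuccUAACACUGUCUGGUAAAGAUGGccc

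The 5′ arms carry other seeds: AUCUUAC in Mir200a and Mir200b, UCUUACC in Mir429, GUCUUAC in Mir200c and AUCUUCC in Mir141. Which arm a read came from is not recorded, so a seed group below is a group of hairpins named by the seed of the 3′ arm.

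All 5 genes lie on the minus strand of mm10 in 2 clusters. In the Mir200b cluster on chromosome 4, transcription reaches Mir200b (156055681 to 156055750) first, then Mir200a (156054896 to 156054985) and then Mir429 (156053905 to 156053987). The cluster spans 1846 nt. In GENCODE M21 it lies inside the noncoding gene Gm13648 on the same strand, with Mir429 overlapping an exon and the other members in an intron. The 3 hairpins also lie in introns of 2 of the 8 transcripts of the protein-coding gene Ttll10. In the Mir200c cluster on chromosome 6, Mir200c (124718322 to 124718390) is followed by Mir141 (124717914 to 124717985), and the cluster spans 477 nt. Both lie in an intron of the noncoding gene Gm15884, and Mir141 overlaps an exon of Gm29008 as well.

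Reads on the strand of a microRNA gene numbered 5317669 in replicate 1 and 7128703 in replicate 2, and levels are given as counts per 1000000 of these (CPM). Of all reads, 28.0% and 25.3% mapped to several places and are in no gene row. Among marker lists of other cell types, the endothelial gene Mir126a stood at 52632 and 51554 CPM, and the smooth muscle genes Mir143 and Mir145a summed to 25617 and 36005 CPM. The 5 blood genes with a row summed to 663 and 857 CPM, and liver Mir122 stood at 210.1 and 171 CPM. Of 5 neuronal genes 1 was detected, and the 3 Mir124a genes had 1 read over both libraries. Of 4 striated muscle genes in the list only Mir206 was counted, at 267 and 287 CPM. Genes present in several copies can lose reads that fit several places. Low counts in these lists therefore do not show that a cell type was absent. Of the adrenal and gonad genes, Mir202 stood at 1.13 and 8.84 CPM and Mir741 at 11.8 and 6.59 CPM.

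The family was abundant and was led by Mir429. Together the 5 genes held 2.63% of the reads in replicate 1 (exact 95% interval 2.61 to 2.64) and 2.68% in replicate 2 (2.67 to 2.69), a mean of 2.65% ± 0.0343 (SD, n = 2). These Clopper-Pearson intervals describe counting error alone, because PCR copies cannot be told from separate molecules here. As a single entity the family would stand below 12 other microRNA genes. All 5 members were detected at 1 CPM or above in each library, as were 387 of all 1973 genes. They stood at ranks 17, 32, 34, 83 and 96 of the 1973 genes, of which 618 in replicate 1 and 658 in replicate 2 had reads.

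Mir429 had 81509 reads in replicate 1 and 112268 in replicate 2, which is 15328 and 15749 CPM, a mean of 15538 ± 298 (SD, n = 2). It alone supplied 58.3% (exact 95% interval 58.1 to 58.6) and 58.8% (58.6 to 59.0) of the family's reads. Mir200b stood at 4877 and 4819 CPM, a mean of 4848 ± 40.8. Mir200b and Mir429 are the members of the chromosome 4 cluster with the seed AAUACUG. Mir200c, the member on chromosome 6 with that seed, stood at 4528 and 4576 CPM, a mean of 4552 ± 34.3.

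The 2 hairpins with the seed AACACUG were the lowest. Mir200a stood at 883 and 962 CPM, a mean of 923 ± 55.7, and Mir141 at 669 and 664 CPM, a mean of 667 ± 3.71. Their counts of 4697 and 6858 reads for Mir200a and 3560 and 4735 for Mir141 leave little counting error. The order Mir429, Mir200b, Mir200c, Mir200a, Mir141 was the same in both libraries, and the values of no member overlapped those of another.

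**Figure D1:**
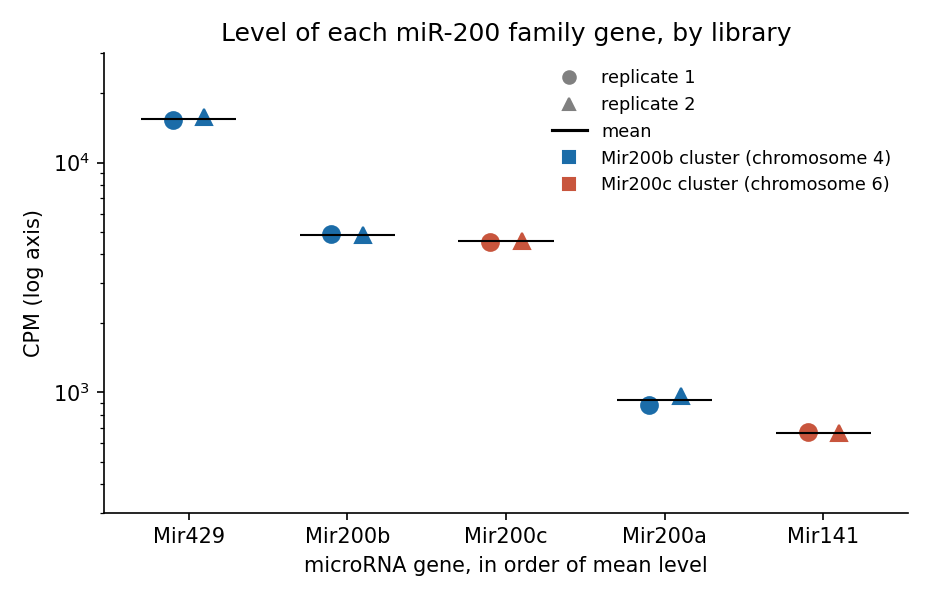
Level in CPM (log axis) of each of the 5 genes in replicate 1 (circle) and replicate 2 (triangle), with the mean as a line and the cluster as colour. Mir429 sits at 15328 CPM and above, Mir200b and Mir200c lie side by side between 4528 and 4877 CPM, and Mir200a and Mir141 are at 962 CPM and below.

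To judge which neighbours in this order are apart, ratios between genes were taken within each library and set against the replicate spread. The pooled SD of log2(CPM + 1) between the libraries was 0.22 over the 181 genes that averaged 100 CPM or more. A mean ratio over both libraries had to exceed 1.34-fold, the 95% range that follows from this SD, to lie beyond that spread. For 1 library alone the limit would be wider. Of the 10 pairs of members, 9 had a mean ratio beyond 1.34-fold. Mir200b and Mir200c, which lie on different chromosomes, were the exception. Their ratio was 1.08-fold in replicate 1 and 1.05-fold in replicate 2, with a mean log2 ratio of 0.09 ± 0.023 (SD, n = 2). Mir200a over Mir141 was close to the limit, with a mean of 1.38-fold, and stood at 1.32-fold in replicate 1 and 1.45-fold in replicate 2. With 2 libraries the smallest p of a two-sided exact sign-flip test is 0.5, so no p-value is given for these ratios. A bias toward some sequences that both libraries share would not show in the replicate spread. The ratios are therefore of reads and not of molecules.

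The clusters differed in sum. The Mir200b cluster reached 21088 and 21530 CPM and the Mir200c cluster 5197 and 5240 CPM. This is a ratio of 4.06-fold and 4.11-fold in the libraries, with a mean log2 ratio of 2.03 ± 0.013 (SD, n = 2). Mir429 held 72.9% of the mean level of the Mir200b cluster, and Mir200c 87.2% of that of the Mir200c cluster. Without Mir429, the remaining pair of the Mir200b cluster stood 1.11-fold and 1.10-fold above the pair Mir200c and Mir141. The mean log2 ratio was then 0.15, which lies within the replicate spread. This leaves out the highest gene of 1 cluster only, so it does not show that the clusters are otherwise alike. Per member, with 3 set against 2, the ratio was 2.72-fold.

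The seed groups lay further apart than the clusters. Hairpins with the seed AAUACUG summed to 24733 and 25144 CPM, 94.0% ± 0.118 of the family's reads (SD, n = 2), and those with AACACUG to 1553 and 1626 CPM. The ratio was 15.9-fold and 15.5-fold, with a mean log2 ratio of 3.97 ± 0.030. Without Mir429 it was 5.92-fold, and per member 10.5-fold. These limits were set for single genes and are applied to sums here.

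The same order by seed held inside each cluster. On chromosome 6, Mir200c exceeded Mir141 by 6.76-fold and 6.89-fold. On chromosome 4, Mir200b exceeded Mir200a by 5.52-fold and 5.01-fold, and Mir429 exceeded it by 17.4-fold and 16.4-fold. The 6 pairs with different seeds ranged from 4.94-fold to 23.3-fold, and the 4 pairs with the same seed from 1.07-fold to 3.41-fold, so the ranges did not overlap. These pairs share genes and are not independent. The 4 pairs within a cluster ranged from 3.20-fold to 16.9-fold, and the pairs across clusters from 1.07-fold to 23.3-fold. Of the 4 pairs within a cluster 3 also differ in seed, so these 2 ranges mix cluster and seed. Within a cluster the same-seed pair stood at 3.20-fold and those with different seeds at 5.26-fold to 16.9-fold. Across clusters the same-seed pairs ran from 1.07-fold to 3.41-fold and those with different seeds from 4.94-fold to 23.3-fold. The part of seed or cluster in these ratios was not tested.

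**Figure D2:**
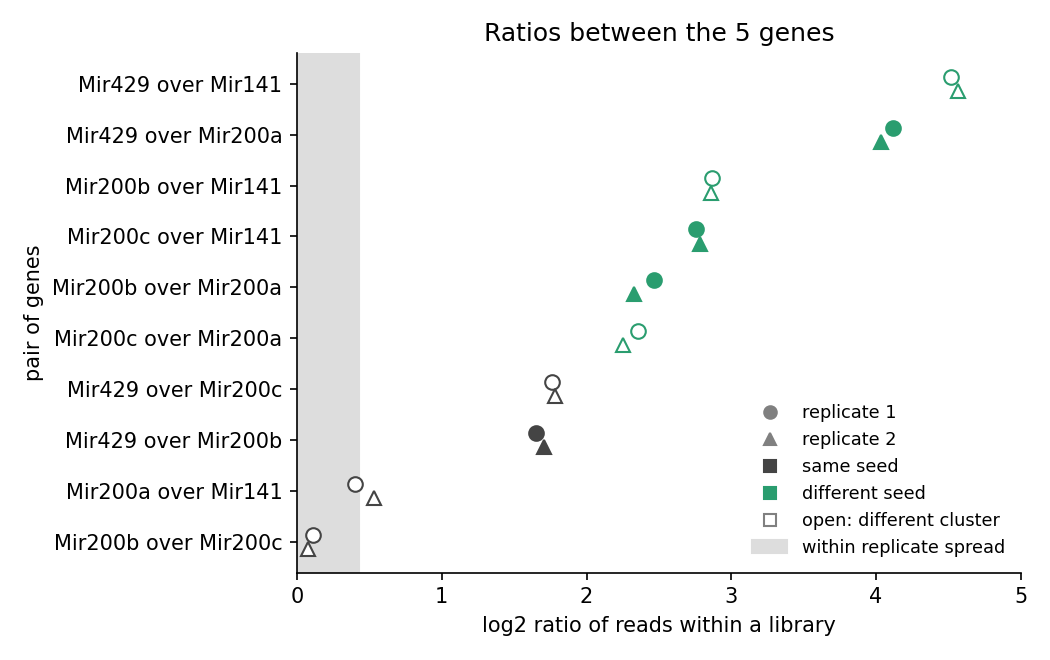
Log2 ratio of reads within a library for the 10 pairs of members, in replicate 1 (circles) and replicate 2 (triangles); green pairs have different seeds, grey pairs the same seed, and open symbols mark genes in different clusters. The grey band is the replicate spread for a mean over both libraries (1.34-fold) and would be wider for 1 library alone. Only Mir200b over Mir200c lies inside the band in both libraries, and the 6 green pairs lie to the right of the 4 grey ones.

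Sequence shared between members bears on the counts, because a read that fits several places is in no gene row. The longest run shared by a pair of hairpins was 17 nt, between Mir200a and Mir141, the members with the lowest levels. For Mir200b and Mir200c it was 14 nt, and for the other pairs 7 to 12 nt. No stretch of 18 nt in any of the 5 hairpins occurred in another of the 2202 microRNA transcripts of GENCODE M21. The part of the 17-nt run in the low counts of Mir200a and Mir141 was not tested.

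Position along the transcript did not give a steady order. On chromosome 4 the lowest level was that of the middle hairpin, Mir200a, which starts 765 nt after Mir200b, and the highest that of the last, Mir429, which starts 1763 nt after Mir200b. On chromosome 6 the last hairpin, Mir141, which starts 405 nt after Mir200c, was the lower one. The hairpins fold, by the ViennaRNA minimum free energy, at -34.7 kcal/mol for Mir429, -30.8 for Mir200b, -31.6 for Mir200c, -42.9 for Mir200a and -35.2 for Mir141. The hairpins of Mir200a and Mir141, the lowest in level, thus had the lowest energies of the 5. Mir429, the highest in level, came close to Mir141, at -34.7 against -35.2 kcal/mol. Length differs too, at 90 nt for Mir200a against 69 to 83 nt for the others. This is a description over 5 genes.

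**Figure D3:**
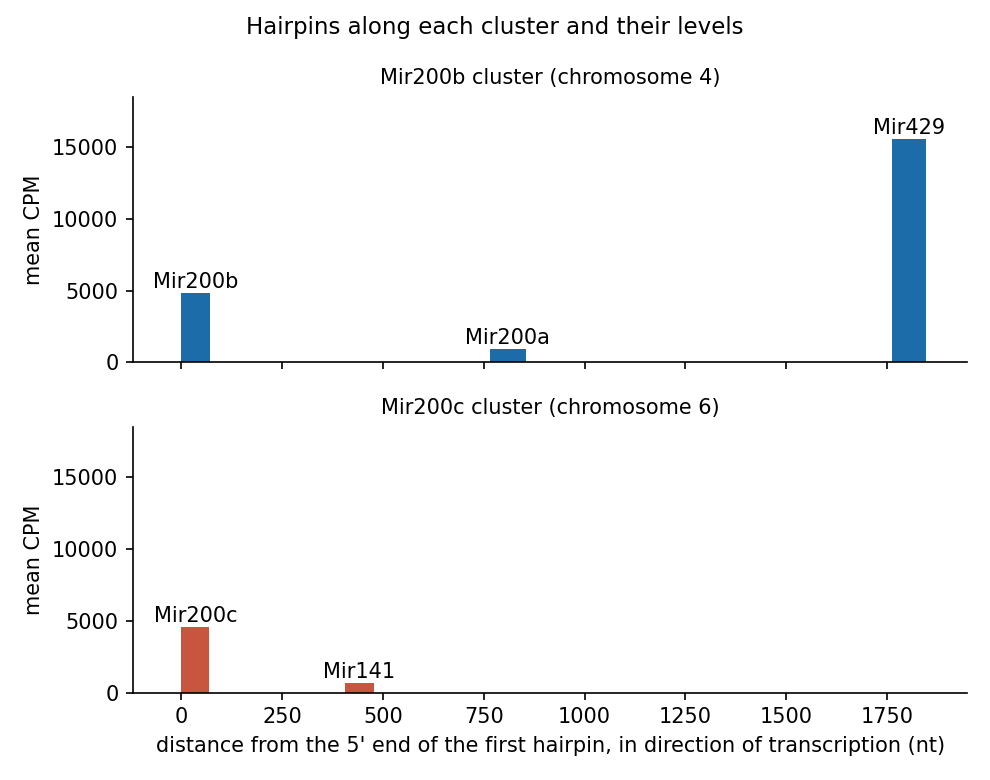
Mean CPM of both libraries (bar height, linear axis from 0) against the distance in nt from the 5′ end of the first hairpin, with bar widths to scale. Mir200a, between Mir200b and Mir429 on the same transcript strand, is the low one of the chromosome 4 cluster, and on chromosome 6 Mir141 is lower than Mir200c.

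Unequal levels inside a cluster were common in these libraries. Genes on a strand at most 10000 nt apart formed 43 clusters with at least 2 members at 1 CPM or above in each library, called detected. The range of 6.83-fold in the Mir200c cluster was exceeded by 16 of 28 other clusters of 2 detected genes, whose ranges ran from 1.34-fold to 259-fold with a median of 10.6-fold. The range of 16.9-fold in the Mir200b cluster was exceeded by 2 of 6 other clusters of 3, with a median of 9.25-fold. Many of these hold genes that share 18 nt with another microRNA gene and may be undercounted. Leaving those clusters out, 5 of 11 clusters of 2 and 1 of 4 clusters of 3 had wider ranges. With genes at most 5000 or 50000 nt apart, settings added after the data were seen, that count for clusters of 3 was 0. The sensory epithelial cluster of Mir183, Mir96 and Mir182, which shares no such stretch, spanned 2.75-fold, and the cluster of Mir106b, Mir93 and Mir25 spanned 15.8-fold.

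**Figure D4:**
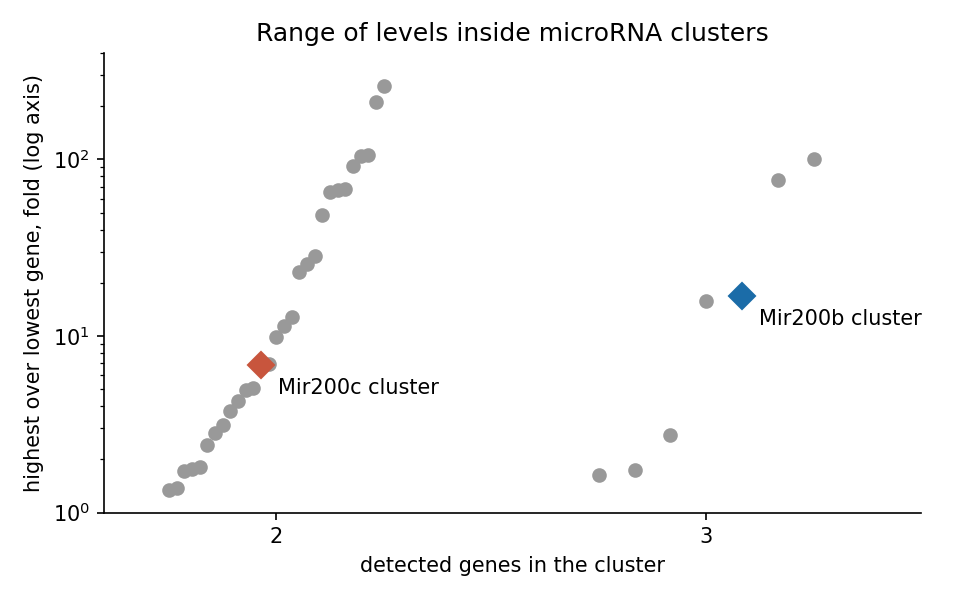
Fold of the highest over the lowest detected gene (log axis) in each microRNA cluster of 2 or 3 detected genes, with points spread sideways by rank; diamonds mark the miR-200 clusters. At 6.83-fold and 16.9-fold, both lie within the spread of the other clusters (grey).

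Opposite-strand reads, which the choice of members did not use, were not detected for the family. Over 139777 sense reads in replicate 1 and 190838 in replicate 2, the opposite strand had 0 reads, which allows a share of up to 0.00215% and 0.00157% (3 reads of the total). Over all microRNA genes 2.14% and 2.24% of reads were on the opposite strand. A count of 0 was also usual: 81 of the 96 genes with at least as many reads as Mir141 had none.

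Between the libraries, the members stayed close together. With edgeR TMM scaling, which aligns the bulk of the genes, the log2 ratio of replicate 2 to replicate 1 was -0.10 for Mir429, -0.16 for Mir200b, -0.13 for Mir200c, -0.15 for Mir141 and -0.02 for Mir200a. The exact binomial test, which takes in counting error only and is adjusted over 455 genes, called 4 of the 5 lower in replicate 2. Adjusted p-values in this exact test ran from 5.1e-54 for Mir429 to 7.9e-06 for Mir141, and Mir200a did not pass (adjusted p = 0.636). The background was high: the test called 33.6% of the 455 genes in either direction and 17.8% of them lower in replicate 2. Of the 96 genes with at least the reads of Mir141, it called 81.2% in either direction and 49.0% lower, so a call is usual at this depth.

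Run with an assumed biological coefficient of variation of 0.2 between pools, the edgeR exact test called 0 of the 5 members, 0 of them at an unadjusted p under 0.05, and 0.659% of all genes. The direction also depended on the scaling. By library totals, which shifts every log2 ratio up by 0.14, Mir429 stood at 0.04, Mir200c at 0.02 and Mir200a at 0.12, while Mir200b stayed at -0.02 and Mir141 at -0.01. Marker lists of other cell types were read in the same comparison under TMM scaling, and the shift of 0.14 by library totals applies to them too. The exact binomial test called 33.6% of all 455 genes, and 81.2% of those with at least the reads of Mir141. Calls among the marker genes are therefore not unusual. Both smooth muscle genes were called higher in replicate 2 in the exact binomial test, Mir143 at 0.35 and Mir145a at 0.47. Of 5 blood genes 3 were called higher, Mir451a at 0.30, Mir144 at 0.43 and Mir150 at 0.69. Liver Mir122 was called lower at -0.44, and so was endothelial Mir126a at -0.17. Of the adrenal and gonad genes Mir202 was called higher at 2.83 and Mir741 lower at -0.99, and Mir202 alone of the genes in these marker lists was also called by the edgeR exact test (adjusted p = 0.00775). Their part in the values of the family was not tested.

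**Figure D5:**
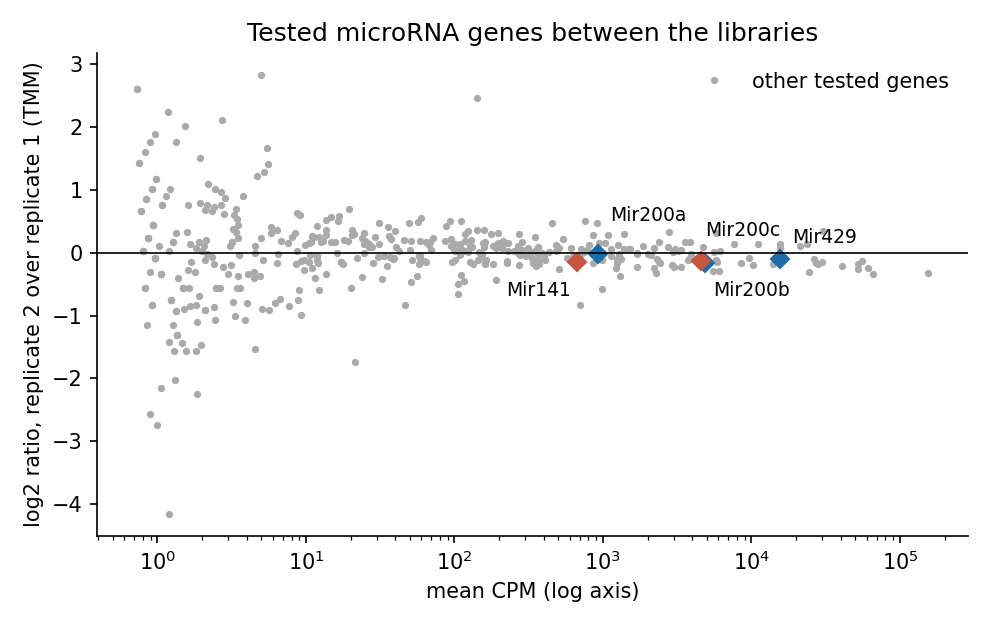
Log2 ratio of replicate 2 over replicate 1 after TMM scaling against mean CPM (log axis) for the tested genes, with the 5 members as diamonds coloured by cluster as before; Mir302c, with 0 reads in replicate 1, has no ratio and is not drawn. The members lie between -0.16 and -0.02, among the other genes of their level.

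The spread of these ratios among cluster partners was small. Mir200c and Mir141 differed by 0.03 on the log2 scale, less than 27 of the 28 other clusters of 2 (median 0.19). The members of the Mir200b cluster spanned 0.14, less than 5 of the 6 other clusters of 3 (median 0.41). Mir200a set that span. Low genes vary more by counting alone, and the other clusters include low ones. Some clusters of 2 summed to 11.3 and 19.8 CPM, and some of 3 to 13.3 and 13.5 CPM. The ranks therefore partly follow depth. The difference between Mir200c and Mir141 was also no larger than the counting error of the ratio of Mir141 (SE 0.032).

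In level, the genes nearest to a member were named by their distance in the plane of log2 CPM of both libraries. For Mir200b and Mir200c these were each other, at a distance of 0.13, and then Mir30d, of a family abundant in kidney. For Mir429 they were Mirlet7d (0.13) and Mir30a (0.17), for Mir200a they were Mir455 (0.12) and Mir532 (0.17), and for Mir141 they were Mir674 (0.11) and Mir188 (0.15). With 2 libraries of 1 tissue this measures a like level only.

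Other microRNAs linked to epithelia summed to less than the family. Of 13 such genes with a row, 12 were detected, and they summed to 9325 and 9226 CPM, so the family exceeded them 2.82-fold and 2.90-fold. None reached the level of Mir200c, and 6 of the 13 had a higher mean than Mir141. By mean CPM Mir182 led with 2126 and 2628 CPM, followed by Mir183 with 2429 and 2135 CPM, which was the higher of the pair in replicate 1, and by Mir203, known from skin, with 1762 and 1657 CPM. Mir205, which also represses ZEB1 and ZEB2, stood at 667 and 768 CPM, close to Mir141. In the exact binomial test, which called 33.6% of all genes, 1 of the 13 was higher and 5 were lower in replicate 2. The median log2 ratio was 0.01, against 0.02 over all genes.

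MicroRNAs linked to mesenchyme and stroma summed to more than the family. Of 12 genes with a row 11 were detected, at 100772 and 109094 CPM, or 3.95-fold the level of the family. Most of this came from Mir10b, at 63659 and 59165 CPM, and Mir143, at 25256 and 35454 CPM, the 2 genes of the list above Mir429. Mir21a followed with 6900.2 and 8427 CPM and Mir214 with 3414 and 4253 CPM, between Mir429 and Mir200a. Mir145b was at 0 in both libraries. The exact binomial test, which called 33.6% of all genes, put 4 of them higher and 2 lower in replicate 2, and their median log2 ratio was 0.15, against 0.02 over all genes. At a coefficient of variation of 0.2 the edgeR exact test called 0 genes of this list and 0 of the epithelial list. Sums over genes that share sequence with another gene may be too low. Which cells the reads came from is not known, so these sums do not give a ratio of stroma to epithelium.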

How the data were processed

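The authors deposited, for each library, a table of raw read counts per annotated microRNA gene on mm10 with annotation M4, per the text files beside the tables. Aligner, counter and trimming were not given in the sources used here. Column names are absent. In every gene row the first count equals the sum of the other 2, taken as either strand, sense and antisense. Sense reads were used. Rows that name no gene held 55.2% and 51.5% of the reads of replicates 1 and 2 and were left out of library totals.

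Symbols came from GENCODE M21 by Ensembl identifier (1894 of 1973 rows matched). CPM used the total of sense reads, of which 3 reads equal 0.564 and 0.421 CPM. Ratios of replicate 2 to replicate 1 used genes with at least 10 reads summed, edgeR 4.0.16 TMM factors of 0.952 and 1.05, a two-sided exact conditional binomial test in SciPy 1.17.1 with Benjamini-Hochberg adjustment, and a threshold of 0.05. The quasi-likelihood test has no residual degrees of freedom with 1 library a side. The edgeR exact test with a fixed coefficient of variation and DESeq2 1.42.0 size factors were alternatives. Both tests were tested on simulated counts that held counting error and seeded changes only. Their behaviour under variation between pools was not tested. Hairpins were folded with ViennaRNA 2.7.2. Named genes are the members, the 2 genes nearest to each in level, and the genes of the fixed lists. Some genes of other clusters (Mir106b, Mir93, Mir25) and Mir302c were named after their values were seen. The members and lists were chosen with earlier results of these data known.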

Additional observations from a re-analysis of the deposited data

How the results depend on the processing

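The level of the family moved with the denominator, from 26528 CPM to 25947 CPM with reads of either strand and to 31383 CPM with Mir10a left out of the totals. TMM and DESeq2 scaling left it within 1 SD. The libraries alone gave 26285 CPM in replicate 1 and 26770 CPM in replicate 2, which with 2 libraries lie within 1 SD of their mean by construction. The ratio of the clusters kept its direction and stayed beyond the replicate spread per member, with pooled sums and in each library. Without Mir429, and with Mir200c kept, it fell to a log2 ratio of 0.15, within the spread. The ratio of the seed groups stayed beyond the spread in all alternatives tried, Mir429 left out included. Counting reads of either strand could not alter the ratio of the clusters or of the seed groups, because the members had 0 opposite-strand reads. Of 40 recomputed ratios between pairs, 39 kept their direction and their side of the limit, and Mir200a over Mir141 in replicate 1 alone (log2 ratio 0.40) did not. The limit for a mean of both libraries was used throughout, also for 1 library alone, where it is too narrow. The other settings could move little, as some add 1 CPM to high levels and others alter only the limit. By library totals the ratio of replicate 2 to replicate 1 changed sign for Mir429 (0.0391), Mir200c (0.0154) and Mir200a (0.123). Of the members, 4 were called between libraries with TMM, all lower in replicate 2; with library totals 2 were called, both higher, and 0 were called lower. The number was 0 with the edgeR exact test at a fixed coefficient of variation, where 3 genes in all were called against 153. The share of called genes higher in replicate 2 was 78.8% by library totals against 47.1% with TMM. With gaps of 5000 and 50000 nt between cluster genes, settings added after the data were seen, 1 and 3 other clusters of 3 had wider ranges than the Mir200b cluster, against 2. Without the clusters that share sequence, the number was 0 under both gaps, against 1. No paired analysis was possible because the series has 1 group. Depth limited none of the ratios between members, the lowest of which has 3560 reads.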
